A study of Homo sapiens with 16 samples.

Results

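The MiT/TFE family comprises 4 human genes, *MITF*, *TFEB*, *TFE3* and *TFEC*, which were taken by symbol from the 34228 genes of the deposited count table. The cells were 2 melanoma lines with acquired resistance to BRAF inhibitors, named 451Lu-R and 1205Lu-R, treated with corin, a bivalent inhibitor of the CoREST repressor complex that acts on its histone deacetylase and on its LSD1 demethylase. Each line received 2.5 μM corin or the vehicle DMSO for 24 h, with 2 libraries per group and 8 libraries in all. Both lines, controls included, had been selected in rising PLX4032 (vemurafenib) over months and kept in 5 μM of it, and each is a single line, so that a comparison between them covers these libraries and not a class of melanoma. The 8 further samples of the series, which received PLX4032 with or without corin, were not analysed here.

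The 4 genes encode basic helix-loop-helix leucine zipper transcription factors that bind the E-box CACGTG and the related M-box CATGTG as homodimers or as heterodimers with each other. MITF is the master regulator of the melanocyte lineage and drives the genes of pigment synthesis, while TFEB and TFE3 are best known for switching on the CLEAR network of lysosome and autophagy genes. TFEB and TFE3 are held in the cytoplasm by 14-3-3 proteins after phosphorylation by mTORC1 on the lysosome, and TFEC is mostly known from macrophages and osteoclasts.

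*MITF* has several promoters, and the one used in melanocytes (the M promoter) is shown because the regulators described further on act on it. The 250 bases before its RefSeq start site (GRCh38.p14, plus strand, chr3:69936342-69936591) were as follows, with capitals marking CTTTGAT, a core bound by LEF1, and TGACGTCA, the palindrome bound by CREB.
MITF M promoter: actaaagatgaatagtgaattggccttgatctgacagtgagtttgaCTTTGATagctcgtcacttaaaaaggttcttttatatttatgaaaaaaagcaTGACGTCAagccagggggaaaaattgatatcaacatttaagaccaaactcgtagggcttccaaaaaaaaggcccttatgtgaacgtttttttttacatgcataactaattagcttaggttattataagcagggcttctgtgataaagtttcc
TGACGTCA began at position -152 from the start site and CTTTGAT at -204. On either strand, TGACGTCA was in the promoters of 2.03% of 27305 genes with a RefSeq promoter entry and CTTTGAT in those of 2.75%. CTTTGAT was added after the promoter had been seen. Of the other motifs searched on both strands (the E-box CACGTG and its longer form TCACGTGA, the M-box CATGTG and its longer form TCATGTGA, the LEF1 core CTTTGAA and the SOX core ACAAAG), only the SOX core was found in a promoter of a family member, at -189 from the upstream *MITF* start site at position 69763811 of chromosome 3. These letters are a description of the sequence and not of a bound site.

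The family's binding site is shown next in 40-base windows of 8 promoters, 4 from pigment genes and 4 from lysosome or vesicle genes, because their genes are named in the results. Capitals mark CATGTG, TCATGTGA or its reverse complement TCACATGA in the pigment genes, and TCACGTGA, which contains CACGTG, in the others.
DCT (chr13:94479794-94479833, minus strand): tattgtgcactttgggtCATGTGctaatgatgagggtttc
GPNMB (chr7:23246696-23246735, plus strand): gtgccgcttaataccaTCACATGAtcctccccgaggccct
SLC24A5 (chr15:48120950-48120989, plus strand): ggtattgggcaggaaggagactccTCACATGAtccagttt
MC1R (chr16:89918781-89918820, plus strand): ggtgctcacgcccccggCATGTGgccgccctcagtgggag
MCOLN1 (chr19:7522566-7522605, plus strand): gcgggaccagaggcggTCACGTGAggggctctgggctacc
ATP6V0D1 (chr16:67481194-67481233, minus strand): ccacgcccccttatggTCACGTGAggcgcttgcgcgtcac
CTSA (chr20:45891293-45891332, plus strand): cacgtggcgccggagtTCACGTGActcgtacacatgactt
VPS11 (chr11:119067767-119067806, plus strand): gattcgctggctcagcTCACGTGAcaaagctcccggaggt
CATGTG was in the promoters of 9 of the 13 pigment targets with a promoter entry, against 11.5% of all genes with one. TCACGTGA was in 4 of 11 lysosomal hydrolases, 4 of 12 lysosomal membrane and proton pump genes and 2 of 9 autophagy genes, against 1.04% of all genes. The lists were written from general knowledge of the family's targets, so a high share of its motif was built into them. These shares describe the lists and are no evidence of binding.

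Library totals ran from 9516687 to 11797788 estimated counts. Libraries of a group differed a little more than counting alone gives, their chi-square statistic being 1.34 to 1.41 times its degrees of freedom. No source used here says of these libraries whether they came from separate cultures, and the p-values measure only the spread between these libraries, which may be technical. Levels are given as CPM (the count normalized to the library total, with TMM scaling over the 8 libraries) within a gene, and changes were called at an FDR (Benjamini-Hochberg adjusted p over all genes tested, edgeR quasi-likelihood test) under 0.05. The summed level of 7 melanocytic markers (*MLANA*, *PMEL*, *TYR*, *DCT*, *S100B*, *SOX10* and *MITF*) was 13031 to 13036 CPM in 451Lu-R with DMSO and 12145 to 12157 with corin. In 1205Lu-R it was 8.59 to 8.93 CPM with DMSO and 22.6 to 25.6 with corin, with *TYR* and *SOX10* at 0 in all 4 libraries. *MITF*, itself a family member, made up most of the sum in 1205Lu-R (7.45 ± 1.29 CPM with DMSO and 15.4 ± 1.01 with corin). *PMEL* made up most of the sum in 451Lu-R (8034 ± 16.9 CPM with DMSO and 7490 ± 37.5 with corin), and *SOX10* and *DCT* in it moved in opposite directions, as described further on. The 3 markers of undifferentiated melanoma (*AXL*, *NGFR* and *EGFR*) summed to 4.29 to 4.81 CPM in 451Lu-R with DMSO and 378 to 388 with corin, where *NGFR* went from 1.01 ± 0.311 to 364 ± 5.59 and *AXL* from 0.0876 ± 0.124 to 2.47 ± 0.121. In 1205Lu-R they summed to 1093 to 1116 CPM with DMSO and 747 to 759 with corin, *NGFR* going from 6.08 ± 0.365 to 198 ± 4.71 and *AXL* from 998 ± 18.7 to 464 ± 6.09. The part of these markers in the values of the family was not tested.

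Of the 4 members, *MITF* and *TFE3* changed with corin in both lines and in opposite directions to each other, while *TFEB* was not called in either line and *TFEC* did not pass the filter on low counts in any comparison. In 451Lu-R *MITF* was the 1 member that fell, against 38.6% of the 14530 genes tested, and *TFE3* the 1 that rose, against 41.3%. In 1205Lu-R *MITF* was the 1 member that rose, against 40.4% of the 14563 genes tested, and *TFE3* the 1 that fell, against 37.8%. With shares this high among all genes, a call by itself did not set a member apart. Of 13200 genes tested in both lines, 4.13% shared the pattern of *MITF* (fell in 451Lu-R and rose in 1205Lu-R), and 5.96% shared that of *TFE3*.

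*MITF* (ENSG00000187098.15, GRCh38 chr3:69739456-69968336, plus strand) was at 747 and 763 CPM in the 451Lu-R libraries with DMSO and at 298 and 296 with corin. In 1205Lu-R it was at 8.36 and 6.54 CPM with DMSO, from 89 and 67 estimated counts, and at 16.1 and 14.7 with corin, from 157 and 167. The 4 groups did not overlap, and every 451Lu-R library with corin still lay far above every 1205Lu-R library. *MITF* fell 2.58-fold in 451Lu-R (log2 fold change -1.37, SE 0.0242, FDR 2.44e-20) and rose 2.08-fold in 1205Lu-R (log2 fold change 1.05, SE 0.142, FDR 7.13e-07). In cultured cells analysed in bulk, fewer cells with a transcript and less transcript per cell cannot be told apart. *MITF* was 102-fold lower in 1205Lu-R than in 451Lu-R with DMSO (log2 fold change -6.68, SE 0.0549, FDR 1.05e-31), the 1 member of 3 tested that was lower, where 41.5% of 14104 genes were. With corin it was 19.4-fold lower (log2 fold change -4.28, SE 0.0509, FDR 8.95e-22), 1 of 2 members that were lower, where 40.2% of 15363 genes were. These comparisons share libraries with those of corin and DMSO. The 20 annotated *MITF* transcripts start at several promoters, and the gene-level counts do not tell the melanocyte form from the others.

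**Figure D1:**
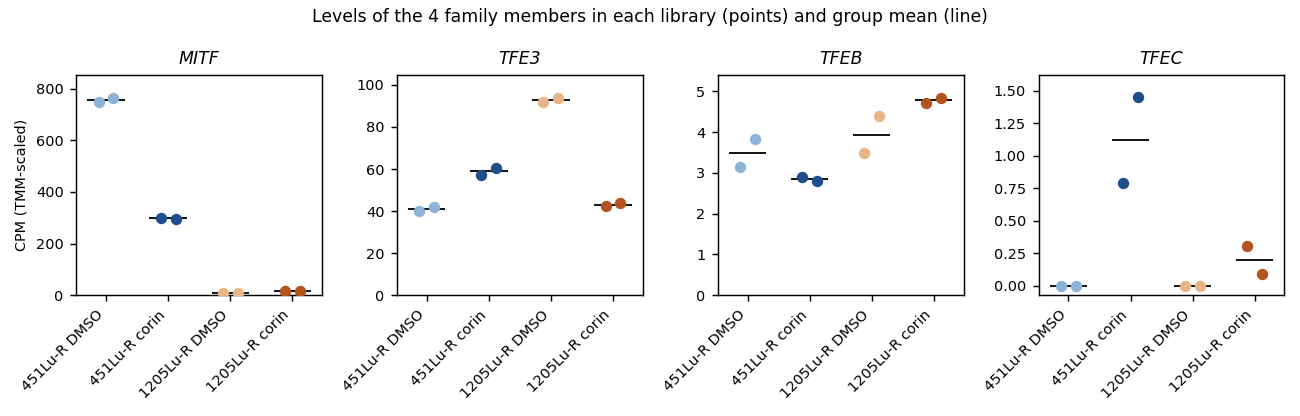
CPM of *MITF*, *TFE3*, *TFEB* and *TFEC* in each of the 8 libraries (points, 2 per group) with the group mean (line), each gene on its own linear axis. *MITF* sits highest in 451Lu-R with DMSO (747 and 763 CPM), *TFE3* highest in 1205Lu-R with DMSO (91.7 and 93.7 CPM), and *TFEC* is at 0 in all DMSO libraries.

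*TFE3* (ENSG00000068323.17, chrX:49028726-49043410, minus strand) was at 39.9 and 41.8 CPM in 451Lu-R with DMSO and at 57.3 and 60.7 with corin. In 1205Lu-R it was at 91.7 and 93.7 CPM with DMSO and at 42.2 and 43.9 with corin. Its highest level was thus in 1205Lu-R with DMSO and its lowest in 451Lu-R with DMSO, the reverse of *MITF*. The levels in 451Lu-R with DMSO and in 1205Lu-R with corin lay next to each other in the order, with the 42.2 CPM of a corin library just above the 41.8 of a DMSO library, and were not compared by a test. *TFE3* rose 1.42-fold in 451Lu-R (log2 fold change 0.51, SE 0.0667, FDR 8.54e-07) and fell 2.12-fold in 1205Lu-R (log2 fold change -1.09, SE 0.0528, FDR 2.86e-14). It was the 1 member called higher in 1205Lu-R with DMSO, 2.24-fold (log2 fold change 1.17, SE 0.0566, FDR 9.69e-16), against 41.0% of genes. With corin it was 1.37-fold lower there (log2 fold change -0.45, SE 0.0641, FDR 4.03e-06), so the order of the lines in *TFE3* turned with the treatment.

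*TFEB* (ENSG00000112561.18, chr6:41683978-41736259, minus strand) was low in every library, with 27 to 55 estimated counts. It was at 3.15 and 3.83 CPM in the DMSO libraries of 451Lu-R and 2.90 and 2.79 in its corin libraries, and at 3.48 and 4.39 CPM in the DMSO libraries of 1205Lu-R and 4.72 and 4.83 in its corin libraries. The corin libraries lay just below the DMSO libraries in 451Lu-R and just above them in 1205Lu-R. The log2 fold change was -0.31 in 451Lu-R (95% interval -0.85 to 0.24, FDR 0.282) and 0.30 in 1205Lu-R (-0.16 to 0.76, FDR 0.224). Changes within these intervals were therefore not excluded. Between the lines *TFEB* was not called with DMSO (log2 fold change 0.16, interval -0.34 to 0.65, FDR 0.553). With corin it was 1.67-fold higher in 1205Lu-R (log2 fold change 0.74, SE 0.243, FDR 0.0101), the 1 member called higher, against 39.0% of genes, but DESeq2 did not call this difference (adjusted p = 0.113).

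*TFEC* (ENSG00000105967.16, chr7:115935148-116159896, minus strand) had 0 counts in all 4 DMSO libraries, where 3 counts, the limit that a count of 0 allows, correspond to 0.271 to 0.310 CPM before TMM scaling. After it, 3 counts per library averaged 0.279 CPM in 451Lu-R with DMSO. With corin it had 9 and 14 counts in 451Lu-R (0.792 and 1.45 CPM) and 3 and 1 counts in 1205Lu-R (0.308 and 0.0878 CPM). Both 451Lu-R libraries with corin were above 3 counts, and their mean was at least 4.02-fold higher than 3 counts per library with DMSO. Both 1205Lu-R libraries with corin were at or under 3 counts. When genes were tested without the filter, *TFEC* was called in 451Lu-R (FDR 1.68e-06 by edgeR, adjusted p = 0.00228 by DESeq2) and not in 1205Lu-R (FDR 0.237 by edgeR). *TFEC* is a gene of macrophages and osteoclasts, and the 7 markers of those cells summed to 101 to 106 CPM in 451Lu-R with DMSO and 150 to 153 with corin, with 3 of 7 and 5 of 7 at 1 CPM or more. In 1205Lu-R they summed to 12.6 to 13.3 CPM with DMSO and 19.5 to 20.6 with corin, with 2 of 7 at 1 CPM or more in both groups. *CD68* and *ACP5* made up most of the sum in 451Lu-R, and both are also expressed outside those cells. *SPI1*, the lineage factor of myeloid cells, was at 0.224 ± 0.178 CPM (mean ± SD, n = 2) with DMSO and 0.044 ± 0.0622 with corin in 451Lu-R, and *PTPRC*, which marks all leukocytes, was at 0.0491 ± 0.0695 and 0.184 ± 0.113. *CSF1R*, the receptor of macrophage colony-stimulating factor, went from 0 counts in both 451Lu-R libraries with DMSO to 30 and 31 with corin, and *CD14*, a monocyte surface protein, from 3 and 0 to 16 and 15. The part of these markers in the *TFEC* value was not tested.

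**Figure D2:**
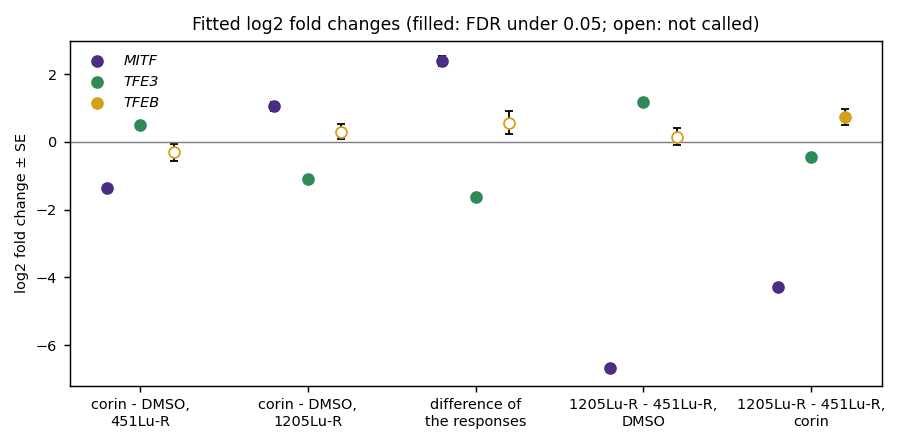
Fitted log2 fold changes of *MITF*, *TFE3* and *TFEB* with their SE (bars) in the 5 comparisons named on the horizontal axis, filled where the FDR was under 0.05. *MITF* and *TFE3* lie on opposite sides of 0 in the first 4 comparisons and on the same side, below 0, between the lines with corin (-4.28 and -0.45).

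The responses of *MITF* and *TFE3* differed between the lines when the difference itself was tested over the 8 libraries (interaction term, 1205Lu-R minus 451Lu-R). It was 2.38 on the log2 scale for *MITF* (FDR 1.39e-11), where 22.6% of 16062 genes had a higher response in 1205Lu-R, and -1.63 for *TFE3* (SE 0.0799, FDR 2.31e-13), where 27.1% had a lower one. For *TFEB* it was 0.57 (95% interval -0.14 to 1.27, FDR 0.177). For *TFEC*, with both DMSO groups at 0, edgeR gave no usable estimate of the difference without the filter (FDR 1), and DESeq2 gave -2.57 (SE 3.02, unadjusted p = 0.396, no adjusted p), a size that depends on how the tool treats counts of 0.

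Members were compared with each other only by per-length levels, which are counts per kilobase of annotated exon scaled to the same sum in every library. In 451Lu-R with DMSO *MITF* stood at 420 and 430, *TFE3* at 39.6 and 41.5 and *TFEB* at 1.95 and 2.39. Among 34052 genes *MITF* ranked 302 and 292 there from the highest, and 884 and 893 with corin. In 1205Lu-R with DMSO *TFE3* led with 92.4 and 94.9, followed by *MITF* with 4.78 and 3.76 and *TFEB* with 2.19 and 2.78. The order *MITF*, *TFE3*, *TFEB*, *TFEC* in 451Lu-R and *TFE3*, *MITF*, *TFEB*, *TFEC* in 1205Lu-R was the same with and without corin and in each library.

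With corin the 2 leading members drew together in both lines. The per-length level of *MITF* was 10.6 and 10.4 times that of *TFE3* in 451Lu-R with DMSO and 2.95 and 2.76 times with corin. In 1205Lu-R *TFE3* was 19.3 and 25.3 times *MITF* with DMSO and 4.63 and 5.28 times with corin. *MITF* made up 90.9% ± 0.184 (SD, n = 2) of the family's summed per-length level in 451Lu-R with DMSO and 73.3% ± 0.930 with corin, and in 1205Lu-R 4.26% ± 0.782 and 15.9% ± 1.22. *TFE3* went from 8.66% ± 0.126 to 25.7% ± 0.861 of the family in 451Lu-R and from 93.3% ± 0.401 to 78.5% ± 1.31 in 1205Lu-R. The family's sum went from 468 ± 9.18 to 193 ± 1.98 in 451Lu-R and from 100 ± 1.49 to 56.2 ± 0.548 in 1205Lu-R, so that it was lower with corin in both lines, where *MITF* had the largest drop in the first and *TFE3* in the second. These ratios depend on the length used. With the median length of coding transcripts in place of all exons, *MITF* was 30.5 times *TFE3* in 451Lu-R with DMSO and 8.31 times with corin, and *TFE3* was 7.54 times *MITF* in 1205Lu-R with DMSO and 1.70 times with corin. With that length the share of *MITF* in 1205Lu-R was 11.1% with DMSO and 33.6% with corin, and the order of the members was the same.

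**Figure D3:**
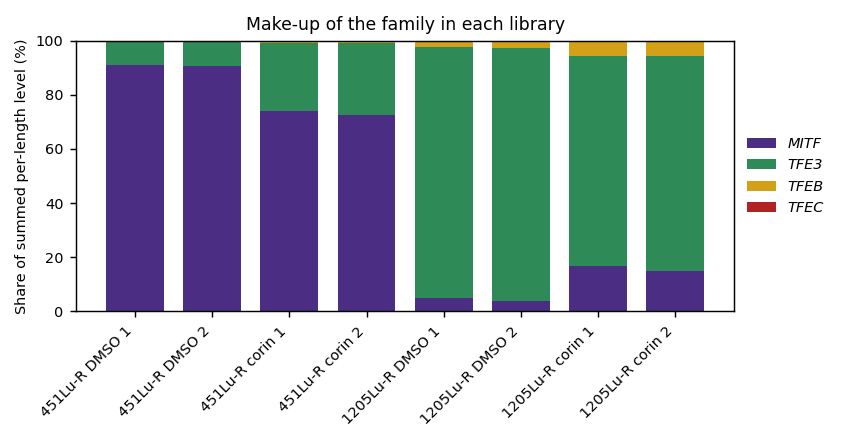
Share (%) of each member in the family's summed per-length level, 1 stacked bar per library. *MITF* fills 90.7% to 91.0% of the bar in 451Lu-R with DMSO and 72.7% to 74.0% with corin, and *TFE3* 93.0% to 93.6% in 1205Lu-R with DMSO and 77.6% to 79.4% with corin.

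The genes known to act on the *MITF* promoter or upstream of it were examined next. Of 8 activators, 4 rose and 4 fell in 451Lu-R (median log2 fold change -0.26, against 0.03 over all genes), and 4 rose and 3 fell among the 7 tested in 1205Lu-R (median 0.20, against 0.03). Among all genes tested the risen shares were 41.3% and 40.4% and the fallen shares 38.6% and 37.8% in 451Lu-R and 1205Lu-R, respectively. *SOX10*, the neural crest factor that acts with PAX3 on *MITF*, fell in 451Lu-R, with DMSO libraries at 722 ± 22.8 CPM and corin libraries at 242 ± 2.52 (log2 fold change -1.60, FDR 6.75e-21), and shares 260 exonic bases with *POLR2F* on the opposite strand. *LEF1*, the nuclear partner of β-catenin, fell in both lines, from 136 ± 1.77 to 67.0 ± 0.400 CPM in 451Lu-R and from 33.8 ± 0.429 to 17.2 ± 0.203 in 1205Lu-R. *ZEB2*, the EMT-family factor of differentiated melanocytes, fell from 144 ± 0.376 to 38.0 ± 4.82 CPM in 451Lu-R (log2 fold change -1.95, FDR 1.06e-16). *TFAP2A*, which shares melanocyte targets with MITF, fell there too, from 120 ± 0.755 to 55.9 ± 1.35 CPM (log2 fold change -1.13).

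In 1205Lu-R *TFAP2A* rose (log2 fold change 0.61, FDR 0.000254) and *ZEB2* rose (0.37, FDR 0.00708, not called by DESeq2 with adjusted p = 0.13 nor without the second DMSO library, FDR 0.0857 by edgeR), so that both moved in the same direction as *MITF* in each line. *PAX3* and *CTNNB1*, the gene of β-catenin, moved the other way: they rose in 451Lu-R with log2 fold changes of 0.68 and 0.51 and fell in 1205Lu-R with -0.39 and -0.23. Each pattern was thus that of 2 of 7 activators tested in both lines, against 4.13% and 5.96% of all genes, respectively. *CREB1*, the cAMP response factor, rose in 451Lu-R (0.52) and in 1205Lu-R (0.20, not called by DESeq2 with adjusted p = 0.129). *MC1R*, the receptor that feeds the cAMP pathway, rose in both lines, from 84.8 ± 0.450 to 156 ± 1.89 CPM in 451Lu-R and from 7.90 ± 0.279 to 13.3 ± 1.32 in 1205Lu-R, and it shares 547 exonic bases with *TCF25* on its own strand. All 8 activators were lower in 1205Lu-R than in 451Lu-R with corin, and 7 were with DMSO, *CREB1* being the exception, against 40.2% and 41.5% of all genes.

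Of the 8 factors listed as repressors of *MITF*, 7 had counts. In 451Lu-R 5 of 6 tested rose and none fell, against 41.3% and 38.6% of all genes (median log2 fold change 1.11, against 0.03). In 1205Lu-R 4 of 7 rose and 1 fell, against 40.4% and 37.8% (median 0.56, against 0.03). *JUN*, the AP-1 subunit, rose from 21.0 ± 1.51 to 82.9 ± 2.76 CPM in 451Lu-R (log2 fold change 1.96, FDR 3.02e-15) and from 173 ± 2.08 to 258 ± 1.71 in 1205Lu-R (0.59, FDR 3.69e-13). *ATF4*, the factor of the integrated stress response, rose in both lines as well, with log2 fold changes of 0.63 and 0.56. *ZEB1*, an EMT factor, rose in 451Lu-R from 6.47 ± 0.853 to 19.8 ± 1.80 CPM and was at 61.3 ± 0.756 and 59.0 ± 1.88 in 1205Lu-R. *BHLHE40*, a repressor of the E-box, rose in 451Lu-R (0.48, FDR 2.33e-06) and had a log2 fold change of -0.06 in 1205Lu-R (FDR 0.248), a sign that turned without TMM scaling (0.019).

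*GLI2*, a hedgehog factor, had 7 and 3 counts in the DMSO libraries of 451Lu-R and 45 and 43 in its corin libraries, and in 1205Lu-R it fell from 51.9 ± 3.42 to 24.6 ± 1.34 CPM (log2 fold change -1.07, FDR 3.52e-11). It was the repressor that moved against *MITF* in both lines. *POU3F2* (BRN2) was at 36.8 ± 1.02 and 33.9 ± 0.984 CPM in 451Lu-R (FDR 0.0823) and rose with *MITF* in 1205Lu-R, from 4.49 ± 0.963 to 10.0 ± 0.514 (log2 fold change 1.17, FDR 3.36e-06). *FOXD3*, a neural crest factor, had 0 counts in every 451Lu-R library, 7 and 2 in the DMSO libraries of 1205Lu-R and 18 and 20 in its corin libraries. With DMSO 4 of 6 repressors tested were higher in 1205Lu-R, the line with less *MITF*, than in 451Lu-R, against 41.0% of all genes, and *POU3F2* and *ATF4* were lower. The part of the activators and repressors in the values of *MITF* was not tested.

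**Figure D4:**
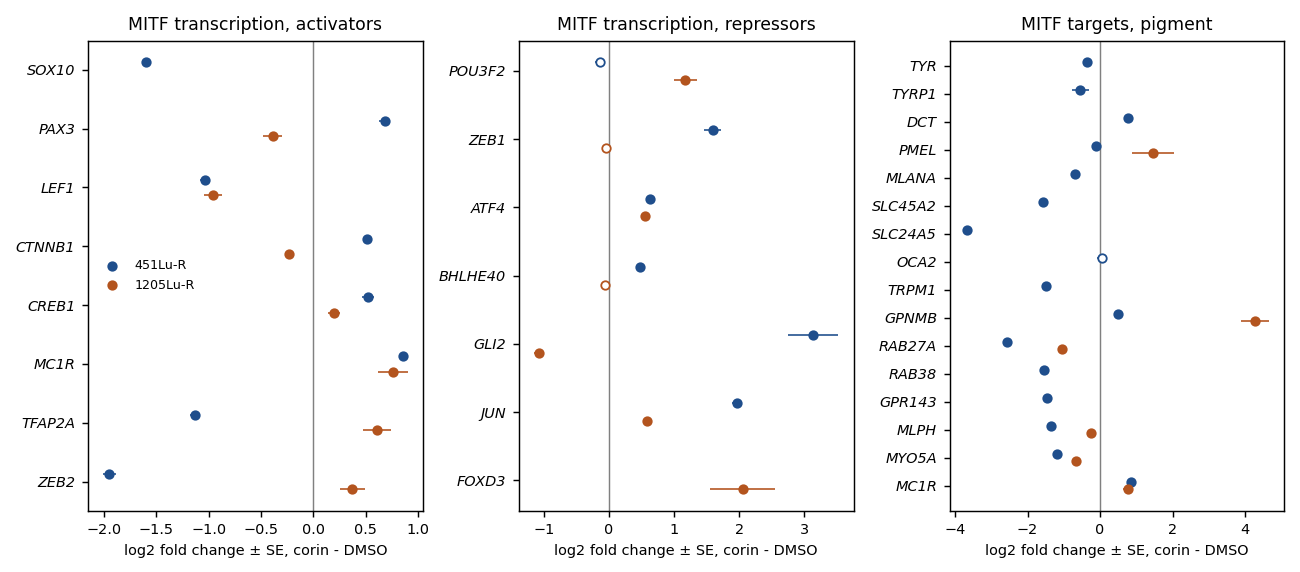
Log2 fold change of corin against DMSO with its SE for activators and repressors of *MITF* and for its pigment targets, in 451Lu-R (blue) and 1205Lu-R (orange), filled where the FDR was under 0.05; genes under the filter are not drawn. *TFAP2A* and *ZEB2* lie below 0 in 451Lu-R (-1.13 and -1.95) and above it in 1205Lu-R (0.61 and 0.37), and most pigment targets lie below 0 in 451Lu-R.

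Most pigment targets fell with *MITF* in 451Lu-R, 12 of 16 against 38.6% of all genes, while 3 rose, against 41.3% (median log2 fold change -0.94, against 0.03). The largest falls were in *SLC24A5*, a melanosome cation exchanger, from 326 ± 8.51 to 26.0 ± 2.24 CPM (log2 fold change -3.68, FDR 2.28e-22), in *RAB27A*, which ties melanosomes to myosin, from 358 ± 5.62 to 61.4 ± 0.640, and in *SLC45A2*, a melanosome transporter, from 276 ± 3.70 to 94.2 ± 5.36. The 3 that rose were *DCT*, dopachrome tautomerase, from 1588 ± 4.05 to 2773 ± 30.2 CPM (log2 fold change 0.78, FDR 3.65e-19), *GPNMB*, a melanosome and lysosome glycoprotein, from 1304 ± 19.7 to 1872 ± 13.8 (0.50, FDR 8.55e-16), and *MC1R*. The promoters of *SLC24A5*, *DCT*, *GPNMB* and *MC1R*, shown above, all hold CATGTG, so genes with this motif were found on both sides. *SLC24A5* shares 1574 exonic bases with *MYEF2* on the opposite strand, and the counting is not stated to use strand.

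In 1205Lu-R only 6 of the 16 pigment targets passed the filter, 3 of which rose and 3 fell, where 40.4% and 37.8% of all genes did. *GPNMB* was counted 2 and 4 times in DMSO libraries and 58 and 62 times in corin libraries (0.188 and 0.390 CPM against 5.95 and 5.45). *PMEL*, the melanosome fibril protein, was counted 1 and 9 times in DMSO libraries and 16 and 12 times in corin libraries (FDR 0.0285). *RAB27A*, *MLPH* and *MYO5A*, the 3 proteins that carry melanosomes along actin, all fell in 1205Lu-R, against the rise of *MITF*, with log2 fold changes of -1.04, -0.26 and -0.67, and they fell in 451Lu-R too (-2.57, -1.36 and -1.19). All 16 targets were lower in 1205Lu-R than in 451Lu-R with DMSO, against 41.5% of all genes. Those under the filter in 1205Lu-R entered that comparison through their levels in 451Lu-R, so a lower level was the only call open to them. The difference of the responses was called for 6 of 16, all with a higher response in 1205Lu-R, and the other 10 were not called. Apart from *MC1R*, those not called had at most 16 counts in any 1205Lu-R library. Their standard errors ran from 0.958 (*OCA2*) to 3292 (*SLC45A2*) on the log2 scale. With so few counts in 1205Lu-R, the test could not decide whether their responses differed. The 6 of 16 is therefore no fair match for the 22.6% of all genes with a higher response. Of the 6 called, *RAB27A*, *MLPH* and *MYO5A* fell in both lines, by less in 1205Lu-R. The others were *GPNMB*, *TYRP1* and *GPR143*, with few counts in 1205Lu-R. *TYRP1* and *GPR143* were under the filter there and entered this fit through their levels in 451Lu-R. The count of 6 is thus not a count of pigment targets that rose in 1205Lu-R.

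Among 16 targets of MITF in growth, survival and metabolism, 7 rose and 7 fell in 451Lu-R, near the 41.3% and 38.6% of all genes (median -0.11, against 0.03). In 1205Lu-R 5 rose and 3 fell among 12 tested, against 40.4% and 37.8% (median 0.13, against 0.03). *BCL2A1*, an antiapoptotic BCL2 relative, moved with *MITF* in both lines: it fell from 70.0 ± 7.06 to 22.3 ± 2.23 CPM in 451Lu-R (log2 fold change -1.66, FDR 7.60e-13) and rose from 6.39 ± 1.73 to 27.5 ± 0.185 in 1205Lu-R (2.12, FDR 3.57e-12). *EDNRB*, the endothelin receptor of the melanocyte lineage, fell from 394 ± 5.74 to 136 ± 4.98 CPM in 451Lu-R and had 0 counts in both 1205Lu-R libraries with DMSO against 38 and 49 with corin. *MET*, the receptor of hepatocyte growth factor, also fell and rose in this way (log2 fold changes -0.58 and 1.48). These were 3 of 12 targets tested in both lines, against 4.13% of all genes, and 1 did the reverse, against 5.96%. *CDKN1A*, the p21 cell cycle inhibitor, and *PPARGC1A*, the coactivator of mitochondrial biogenesis, rose in both lines. *CDKN1A* went from 2.65 ± 0.281 to 294 ± 1.96 CPM in 451Lu-R and from 108 ± 0.984 to 482 ± 7.28 in 1205Lu-R. *CDK2* and *APEX1* fell in both lines, *CDK2* with log2 fold changes of -0.74 and -1.23, and *CDK2* shares 89 exonic bases with *PMEL* on the opposite strand.

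The lysosome genes of the CLEAR network were read in 2 lists, which were not compared by a test. Of 19 genes of the lysosomal membrane and its proton pump, 12 rose and 4 fell in 451Lu-R, the line in which *TFE3* rose, against 41.3% and 38.6% of all genes (median log2 fold change 0.17, against 0.03). In 1205Lu-R, where *TFE3* fell, 3 rose and 13 fell among 18 tested, against 40.4% and 37.8% (median -0.33, against 0.03). A rise in 451Lu-R with a fall in 1205Lu-R was found for 7 of 18, against 5.96% of all genes, and 0 of 18 did the reverse, against 4.13%. Between the lines with DMSO, 2 of 19 were higher and 16 lower in 1205Lu-R (median -0.78), where *TFE3* was higher. The shares of all genes there were 41.0% and 41.5%. With corin 19 of 19 were lower in 1205Lu-R, against 40.2%. The part of *TFE3* in these values was not tested. *ATP6V0D1*, a subunit of the pump's membrane part, went from 84.3 ± 2.52 to 109 ± 4.15 CPM in 451Lu-R and from 77.5 ± 5.51 to 43.1 ± 1.38 in 1205Lu-R (difference of the responses -1.21, FDR 3.20e-11). *ATP6V0E1* and *ATP6V1H* of the same pump had differences of -1.17 and -1.03. *MCOLN1*, the lysosomal calcium channel, fell in both lines, from 37.0 ± 2.21 to 26.6 ± 0.557 CPM and from 20.3 ± 1.76 to 8.54 ± 0.473. *CLCN7*, the chloride-proton exchanger, fell in both lines too (log2 fold changes -1.78 and -1.19), while *ATP6V0A1* and *ATP6V1B2* rose in both (1.16 and 0.75, and 0.93 and 0.80).

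The lysosomal hydrolases moved in both directions in each line. In 451Lu-R 7 rose and 8 fell of 19, near the 41.3% and 38.6% of all genes (median 0.04, against 0.03). In 1205Lu-R 9 rose and 4 fell, against 40.4% and 37.8% (median 0.18, against 0.03). Between the lines with DMSO, 3 of 19 were higher and 14 lower in 1205Lu-R, against 41.0% and 41.5% of all genes. *CTSB*, the protease cathepsin B, rose from 502 ± 0.261 to 1181 ± 6.51 CPM in 451Lu-R and from 1428 ± 5.29 to 2050 ± 3.69 in 1205Lu-R. *PSAP*, the precursor of the saposins, rose from 2147 ± 9.13 to 3877 ± 29.1 and from 934 ± 10.0 to 1184 ± 10.7 CPM. *CTSA*, the protective protein of the sialidase, fell in both lines (log2 fold changes -0.44 and -0.19), and *ASAH1*, acid ceramidase, moved with *MITF*, falling in 451Lu-R (-0.78, FDR 3.66e-16) and rising in 1205Lu-R (0.27, FDR 0.000441). It was the 1 hydrolase of 19 with that pattern, a share near the 4.13% of all genes tested in both lines.

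Of 11 autophagy genes tested, 6 rose and 3 fell in 451Lu-R, against 41.3% and 38.6% of all genes (median 0.44, against 0.03). In 1205Lu-R 5 rose and 5 fell, near the 40.4% and 37.8% of all genes (median 0.11, against 0.03). Both lines shared 5 risen genes of the 11, against 28.8% of all genes, and 3 fallen ones, against 28.5%. *SQSTM1*, the p62 cargo receptor, rose from 659 ± 12.1 to 1743 ± 13.6 CPM in 451Lu-R (log2 fold change 1.38, FDR 4.74e-22) and from 648 ± 6.26 to 2286 ± 9.95 in 1205Lu-R (1.83, FDR 2.25e-27). It shares 1582 exonic bases with *MRNIP* on the opposite strand. *VPS8* of the endosomal CORVET complex also rose in both lines (1.42 and 1.08). *WIPI1*, a phosphoinositide sensor of forming autophagosomes, moved with corin in the direction of *TFE3* in each line. It rose in 451Lu-R from 52.5 ± 1.57 to 146 ± 3.07 CPM and fell in 1205Lu-R from 35.6 ± 1.09 to 12.2 ± 0.741 (difference of the responses -3.01, FDR 2.50e-16). Between the lines with DMSO *WIPI1* was lower in 1205Lu-R (log2 fold change -0.58, FDR 2.03e-08), where *TFE3* was higher. *VPS11*, *VPS33A* and *BECN1* fell in both lines, with log2 fold changes of -1.16, -0.80 and -1.11 in 451Lu-R. In 1205Lu-R their log2 fold changes were -1.18, -1.39 and -1.10. *BECN1* shares 300 exonic bases with *PSME3*, and *WIPI1* 829 with *ARSG*, on the opposite strand.

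**Figure D5:**
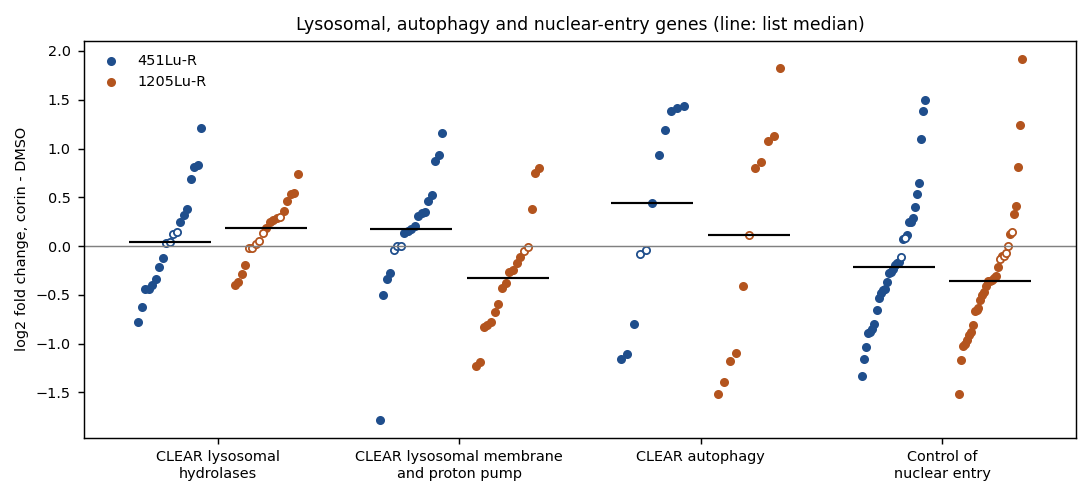
Log2 fold change of corin against DMSO for each tested gene of 4 lists (points, sorted within a list, filled where the FDR was under 0.05) with the list median (line), in 451Lu-R (blue) and 1205Lu-R (orange). The median of the lysosomal membrane and proton pump list lies above 0 in 451Lu-R (0.17) and below it in 1205Lu-R (-0.33), while the list on control of nuclear entry lies below 0 in both (-0.21 and -0.36).

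Among genes that control the entry of the family's proteins into the nucleus, more fell than rose in each line. In 451Lu-R 11 rose and 19 fell of 32 tested, against 41.3% and 38.6% of all genes (median -0.21, against 0.03). Of 33 tested in 1205Lu-R 22 fell while 6 rose, against 37.8% and 40.4% (median -0.36, against 0.03). Of 32 tested in both lines 15 fell in both, where 28.5% of all genes did. *RPTOR*, the mTORC1 subunit that recruits substrates, fell from 106 ± 5.00 to 43.0 ± 2.84 CPM in 451Lu-R and from 148 ± 4.56 to 73.2 ± 4.24 in 1205Lu-R. *TSC2*, the brake on mTORC1, fell with log2 fold changes of -1.16 and -1.52, *AKT1*, a kinase upstream of both, with -1.04 and -1.17, and *XPO1*, the nuclear exporter, with -0.88 and -1.02. *TSC2* shares 784 exonic bases with *PKD1* on the opposite strand. *RRAGA*, a Rag GTPase that brings mTORC1 and TFEB to the lysosome, rose in both lines (1.38 and 0.81), as did *YWHAG*, the 14-3-3 gamma protein (1.10 and 0.41). *RRAGD*, a Rag GTPase gene that the family itself activates, moved with *MITF*: it fell in 451Lu-R from 79.2 ± 0.211 to 70.8 ± 0.163 CPM (log2 fold change -0.19, FDR 0.00216) and rose in 1205Lu-R from 12.6 ± 2.71 to 29.5 ± 0.725 (1.24, FDR 1.82e-09). *PPP3CA*, the calcineurin subunit of the phosphatase that releases TFEB, rose 2.83-fold in 451Lu-R (FDR 1.48e-14) and fell in 1205Lu-R (log2 fold change -0.10, FDR 0.0137). These are transcript levels, and where the proteins were in the cell was not measured in these files.

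Genes with the family's motif in a RefSeq promoter were then counted without regard to any list. TCACGTGA was present in 218 genes tested in 451Lu-R, of which 32.6% rose and 48.6% fell (median log2 fold change -0.20), against 40.6% and 40.5% of the 10988 tested genes with a promoter entry (median 0.00). In 1205Lu-R 30.1% of 219 rose and 49.8% fell (median -0.19), against 39.4% and 40.8% of 10937 (median -0.01). In both lines more of these genes fell than rose, while *MITF* and *TFE3* moved oppositely between them. The shorter E-box CACGTG, which includes these genes, lay nearer to all genes, with 40.1% risen and 44% fallen of 1240 genes in 451Lu-R (median -0.05) and 36.9% and 43.3% of 1228 in 1205Lu-R (median -0.06). For the longer M-box TCATGTGA the shares were 36.9% and 40.5% of 111 genes in 451Lu-R and 30.4% and 40.2% of 102 in 1205Lu-R. For CATGTG they were 41.6% risen and 40.6% fallen of 937 genes in 451Lu-R and 41.2% and 38.3% of 903 in 1205Lu-R. No test was made of these shares, and the part of the family in them was not tested.

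The genes whose levels followed each member most closely over the 8 libraries were found by the distance between centred profiles of log2(CPM + 0.5), among 14432 genes whose mean reached 1 CPM. The 3 nearest to *MITF* were *LAMA2*, a laminin chain (distance 0.62), *C10orf90* (0.803) and *CEACAM1*, an adhesion molecule (0.884). *LAMA2* went from 43.1 ± 1.34 to 22.8 ± 1.46 CPM in 451Lu-R and from 0 to 0.703 ± 0.124 in 1205Lu-R. *C10orf90* and *CEACAM1* were also near 0 in 1205Lu-R, at 0.0939 and 0.192 CPM with DMSO and 1.13 and 1.08 with corin. The 0.5 added to CPM therefore weighs on the profiles of all 3 in that line. Nearest to *TFE3* were *MTMR6*, a phosphoinositide phosphatase (0.306), the small GTPase gene *RALB* (0.343) and *WWTR1*, which encodes TAZ (0.367). *MTMR6* went from 57.3 ± 3.41 to 71.8 ± 1.90 CPM in 451Lu-R and from 110 ± 3.55 to 59.3 ± 0.021 in 1205Lu-R. Nearest to *TFEB* were *METTL21A* (0.254), *ORC5* (0.28) and *ANAPC16* (0.295), with *TFEB* itself varying little. The 8 libraries fall into 4 groups that all genes share, so that likeness over them rests on few independent differences.

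The nearest expressed neighbours of the members were also read. Beside *MITF*, *FRMD4B* had a log2 fold change of -0.11 in 451Lu-R (FDR 0.0998) and rose in 1205Lu-R (0.97, FDR 0.000988), and *FOXP1* rose in both lines (0.59 and 0.28). Beside *TFE3*, *GRIPAP1* rose in both lines (0.27 and 0.40), also in 1205Lu-R where *TFE3* fell, and *CCDC120* fell in 451Lu-R (-0.45, FDR 0.0280). Beside *TFEB*, *FOXP4* was not called in either line (0.16 with FDR 0.0563, and 0.03 with FDR 0.688), and *FRS3* had -0.28 in 451Lu-R (FDR 0.487) and rose in 1205Lu-R (0.88, FDR 0.0132). Beside *TFEC*, *TES* rose from 39.7 ± 0.900 to 197 ± 4.41 CPM in 451Lu-R and from 97.6 ± 1.52 to 251 ± 1.31 in 1205Lu-R, and *MDFIC* fell in both (-1.03 and -1.17). No 31-base stretch was shared between the transcripts of any pair of members, so a read that matches 1 member over that length matches no other.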

How the data were processed

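RNA-Seq of polyA RNA from 2 melanoma lines was analysed, with 2 libraries per group. The authors clipped adapters and poor-quality bases with Trimmomatic, ran Salmon on the GENCODE v32 transcripts, summed its output to genes and deposited the estimated counts without normalization. Tool versions are not given in the sources used here. Gene-level counts carry no effective lengths, so a shift between isoforms of different length can move them. Of 34228 genes, 34052 matched a name in GENCODE 44, also GRCh38, which gave lengths and overlaps. Promoters came from the RefSeq table for GRCh38.p14. The tables for the PLX4032 groups hold the log2 fold changes and p-values that the authors computed, and were not used.

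Estimated counts were rounded to whole numbers and tested with edgeR 4.0.16 in R 4.3.3 (filterByExpr, TMM, glmQLFit and glmQLFTest, 2-sided, Benjamini-Hochberg over all genes tested). Corin was compared with DMSO within each line and the lines within each treatment, on 4 libraries each, and the difference of the responses by an interaction term on 8. The standard error is the log2 fold change divided by the root of F. Methods were tested on simulated data.

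Replicate numbers did not pair the libraries (r between deviations of same-numbered libraries -0.0113 for 451Lu-R and -0.00579 for 1205Lu-R), and a block on them was an alternative only. Members and the 8 lists, 131 genes written from general knowledge of the family, of which 129 had counts, were chosen with earlier results of these data known. Named were the members, all genes of both lists on *MITF* transcription, and from each other list, in every comparison, up to 3 with the largest rise and 3 with the largest fall at an FDR under 0.05 and a mean of at least 1 CPM, plus the 3 nearest profiles per member. Neighbouring genes and counts of lists were given as descriptions, and no list was tested. Alternatives were DESeq2 1.42.0, RLE size factors, library size only, other filters, a replicate block, a joint fit of all libraries, leaving out each library, other lengths and stricter calls.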

Additional observations from a re-analysis of the deposited data

Results flagged for a closer look

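The corin response differed between the lines (1205Lu-R minus 451Lu-R, log2 scale, edgeR interaction term over 8 libraries, FDR under 0.05) for 2 of 3 members tested, *MITF* (2.38) and *TFE3* (-1.63). Over all 16062 genes tested, 22.6% had a higher and 27.1% a lower response in 1205Lu-R.

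Among the regulators of *MITF* the difference was 2.29 for *ZEB2*, 1.70 for *TFAP2A* and 1.28 for *POU3F2*, with the higher response in 1205Lu-R as for *MITF*. It was -4.22 for *GLI2*, -1.67 for *ZEB1*, -1.40 for *JUN*, -1.11 for *PAX3*, -0.78 for *CTNNB1*, -0.57 for *BHLHE40* and -0.36 for *CREB1*.

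Among pigment targets it was 4.62 for *TYRP1*, 3.73 for *GPNMB* and 2.18 for *GPR143*, and no 1205Lu-R library had more than 62 counts of any of them. The call of *TYRP1* was lost with DESeq2 (adjusted p = 0.0542). It was also lost without either 1205Lu-R DMSO library (4.62 each) and without the first corin library of that line (3.64). The call of *GPR143* was lost without the second corin library of that line (1.82). Among the other MITF targets it was 9.98 for *EDNRB*, whose size depends on the prior count because 1205Lu-R with DMSO was at 0, 3.75 for *BCL2A1* and 3.25 for *CTSK*, and -4.63 for *CDKN1A*, -1.28 for *HIF1A* and -0.91 for *DIAPH1*. *CTSK* did not pass the filter in 1205Lu-R. Its difference was 2.37 without the first DMSO library of 1205Lu-R and 2.77 without the first corin library of that line, and its call was lost in both fits.

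Among lysosomal hydrolases it was 1.01 for *ASAH1*, 0.61 for *NAGLU* and 0.58 for *SGSH*, and -0.71 for *CTSB*, -0.51 for *PSAP* and -0.48 for *GLA*. In the lysosomal membrane and its pump it was -1.21 for *ATP6V0D1*, -1.17 for *ATP6V0E1* and -1.03 for *ATP6V1H*, and 0.56 for *CLCN7* and 0.21 for *ATP6V1A*. Among autophagy genes it was -3.01 for *WIPI1*, -0.62 for *VPS33A* and -0.39 for *VPS8*, and 0.65 for *GABARAPL1* and 0.42 for *SQSTM1*. In the control of nuclear entry it was 1.38 for *RRAGD*, 0.38 for *MLST8* and 0.29 for *RPTOR*, and -1.64 for *PPP3CA*, -0.78 for *YWHAZ* and -0.78 for *YWHAH*. The calls of *GLA* and *MLST8* were lost without the first 451Lu-R corin library (-0.32 and 0.30). That of *ATP6V1A* was lost without the second 1205Lu-R DMSO library (0.15).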

How the results depend on the processing

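*MITF* and *TFE3* kept their direction and their call in all 5 comparisons under every alternative run other than the stricter calls, and *TFEB* kept its side of the threshold except between the lines with corin, where DESeq2 gave 0.74 with an adjusted p of 0.113. The log2 fold change of *MITF* ranged from -1.47 to -1.34 in 451Lu-R and from 1.01 to 1.13 in 1205Lu-R, and from -1.40 to -1.35 and 0.87 to 1.23 when single libraries were left out. That of *TFE3* ranged from 0.41 to 0.53 and from -1.13 to -1.01. *TFEB* between the lines with DMSO ranged from -0.01 to 0.32 over left-out libraries, with the sign turned without the second 1205Lu-R DMSO library (-0.011). With a replicate block *MITF* was at -1.37 (451Lu-R) and 1.06 (1205Lu-R), and no member's call changed. The same-numbered libraries share only a number.

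At an FDR under 0.001 and a fold change of at least 4, the list genes called were 3 higher and 2 lower with corin for 451Lu-R and 6 higher and 0 lower for 1205Lu-R, since the stricter rule asks for larger changes. For the members this rule was added after seeing the data. It left 0 members called in either line with corin and 1, *MITF*, in each of the other 3 comparisons. *MITF* lost its call with corin (-1.37 in 451Lu-R and 1.05 in 1205Lu-R), *TFE3* in all 5 comparisons (0.51, -1.09, -1.63, 1.17 and -0.45) and *TFEB* between the lines with corin (0.74). The share of *MITF* in the family by median coding length was 96.4%, 88.5%, 11.1% and 33.6% (451Lu-R with DMSO and corin, 1205Lu-R with DMSO and corin), and by longest coding length 92.2%, 76.6%, 5.04% and 18.2%. Without TMM scaling the sign turned for *ZEB1* (0.032) and *BHLHE40* (0.019) in 1205Lu-R, for the difference of the responses of *MC1R* (0.076) and *ATF4* (0.11), and for *CREB1* between the lines with DMSO (-0.060), none of them called, and the cause was not tested. *BHLHE40* ranged from -0.126 to 0.016 over left-out 1205Lu-R libraries, with the sign turned without the second corin library (0.016). Without TMM scaling 64.0% of the called differences of the responses were higher in 1205Lu-R, against 45.4% with it, and their median over all genes was 0.20 against -0.01. The differences of *CREB1* (-0.15, FDR 0.106), *GLA* (-0.27, FDR 0.0746) and *VPS8* (-0.18, FDR 0.173) lost their edgeR call without TMM scaling, and that of *LEF1* gained one (0.25, FDR 0.0357). The depth of 27 to 55 counts limits *TFEB*, and that of 0 to 14 limits *TFEC*.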
